A study of Mus musculus with 12 samples.

Results

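The 9 genes described here encode transcription factors that specify or steer myeloid cells: Spi1 (the factor PU.1), Cebpa, Cebpb, Runx1, Irf8, Irf5, Batf3, Maf and Mitf. They were chosen by name for these roles, and are 9 of the 46078 genes in the count table. They were measured by RNA sequencing of white matter cut by laser capture microdissection from the ventrolateral spinal cord of C57Bl6 mice. Young (6 weeks) and middle-aged (8 months) mice were either naïve or injured, that is, injected with lysolecithin, a detergent-like lipid that strips myelin from axons, and taken 72 h (day 3) later. The 2 ages and 2 conditions gave 4 groups of 3 libraries, and every library was made from the RNA of 5 mice, called a pool here. The ages in weeks and months come from the methods for this experiment. A vehicle-injected group was not analysed here, so that the effects of the needle and of lysolecithin cannot be told apart in any comparison of injured with naïve pools. A pool averages its 5 mice, and the spread between single mice was not measured.

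Blood monocytes, macrophages, dendritic cells and the microglia of the spinal cord all depend on a small circuit of transcription factors. PU.1 opens enhancers throughout the myeloid lineage, where C/EBP and RUNX factors bind beside it, and IRF8 joins PU.1 on composite sites that set monocyte, dendritic cell and microglial fates. Later factors add function: IRF5 acts downstream of Toll-like receptors, c-MAF (Maf) belongs to differentiated macrophages, BATF3 is needed by the type of dendritic cell that cross-presents antigen, and MITF acts with PU.1 in osteoclasts but is best known from melanocytes and mast cells.

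The pools held 9834447 to 12807437 counts on genes. Levels are given as CPM, counts scaled to a common library total after TMM normalization (edgeR's trimmed mean of M values), and 3 counts, the limit taken for detection, correspond to 0.234 to 0.305 CPM of an unscaled total. Of the 9 factors, 8 passed edgeR's filter on low counts and were tested, and these 8 also passed it on the naïve pools alone; Batf3 did not. The general myeloid markers Aif1, Csf1r, Itgam, Itgb2, Tyrobp, Fcer1g, Laptm5 and Ptprc were detected in all groups, and their geometric mean was 6.83 to 9.12 CPM in young naïve, 11.6 to 17.9 in middle-aged naïve, 124 to 135 in young injured and 128 to 170.0 in middle-aged injured pools. Markers of oligodendrocytes were lower in injured pools for 6 of 6 genes at both ages, beside 26.3% of all genes in young and 29.3% in middle-aged mice. In such bulk tissue, more cells of a type and more RNA per cell cannot be told apart, which holds for every level below.

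Stretches upstream of the start sites are shown for Irf8 and Runx1, the factors that passed the test for both injury and age, and for Mitf, which passed for neither. They are the 250 bases before annotated starts in RefSeq (GRCm38.p6), 5′ to 3′ on the strand of the gene, with capitals for every match on either strand to a recognition sequence of these factors. Irf8 and Runx1 each have a pair of annotated starts, those of Runx1 being its proximal and distal promoters, in this order, and of Mitf the first of 3 starts is shown.
Irf8, chr8:120736108-120736357, plus strand: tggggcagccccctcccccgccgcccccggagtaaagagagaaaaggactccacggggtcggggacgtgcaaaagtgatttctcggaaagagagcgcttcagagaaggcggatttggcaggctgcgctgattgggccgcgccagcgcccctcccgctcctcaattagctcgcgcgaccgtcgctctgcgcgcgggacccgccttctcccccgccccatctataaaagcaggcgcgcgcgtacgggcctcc
Irf8, chr8:120738389-120738638, plus strand: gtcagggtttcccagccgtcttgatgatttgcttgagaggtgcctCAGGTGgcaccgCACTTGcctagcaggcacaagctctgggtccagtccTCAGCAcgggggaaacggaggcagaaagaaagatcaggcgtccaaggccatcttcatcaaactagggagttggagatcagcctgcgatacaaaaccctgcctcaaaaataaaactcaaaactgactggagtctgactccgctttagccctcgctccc
Runx1, chr16:92697330-92697579, minus strand: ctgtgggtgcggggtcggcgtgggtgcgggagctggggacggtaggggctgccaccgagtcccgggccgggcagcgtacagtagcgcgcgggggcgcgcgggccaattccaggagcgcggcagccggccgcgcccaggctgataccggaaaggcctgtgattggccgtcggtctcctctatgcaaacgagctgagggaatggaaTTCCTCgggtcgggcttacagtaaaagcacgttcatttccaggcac
Runx1, chr16:92826075-92826324, minus strand: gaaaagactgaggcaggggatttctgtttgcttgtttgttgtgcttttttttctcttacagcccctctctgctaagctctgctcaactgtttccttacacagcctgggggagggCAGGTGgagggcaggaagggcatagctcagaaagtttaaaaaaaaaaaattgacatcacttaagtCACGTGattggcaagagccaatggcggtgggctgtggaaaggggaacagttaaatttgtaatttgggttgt
Mitf, chr6:97806808-97807057, plus strand: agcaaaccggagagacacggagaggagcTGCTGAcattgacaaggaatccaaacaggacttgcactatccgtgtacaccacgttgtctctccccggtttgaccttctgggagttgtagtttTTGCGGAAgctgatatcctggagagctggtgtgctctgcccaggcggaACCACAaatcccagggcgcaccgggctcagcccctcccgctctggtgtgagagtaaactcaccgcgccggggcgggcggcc
The letters searched were GAGGAA (the PU box), TTGCNNAA (C/EBP), GAAA, any 2 bases and GAAA again (the interferon-stimulated response element), TGTGGT (RUNX), TGANTCA (AP-1), CANGTG (forms of the E-box) and TGCTGA (the MAF half-site). CACGTG reads the same on both strands, so its matches on the 2 strands are the same capitals. No match of a motif overlapped one of another motif in the stretches printed. The counts that follow are of stretches with a motif, not of matches. Over the 11 stretches of the 7 factors that the table holds, Batf3, Cebpa, Cebpb, Irf5, Irf8, Mitf and Runx1, the PU box was found in 2, the E-box forms in 4, the MAF half-site in 3, the C/EBP and RUNX letters in 1 each, and the remaining 2 motifs in 0. Among all 32851 stretches of the same length, the PU box was present in 23.3%, the E-box forms in 39.5%, the MAF half-site in 16.1%, the C/EBP letters in 9.56%, the RUNX letters in 14%, the response element in 2.98% and the AP-1 letters in 6.75%. The stretches upstream of Cebpa, Cebpb, Irf5, the first Irf8 start and the third Mitf start held 0 matches. These counts describe the letters only.

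The first question was which of these factors differ between demyelinated and naïve white matter. Of the 8 tested, 7 rose at both ages, and Mitf did not pass at either age. In young mice the rise ran from 3.06-fold for Irf5 to 30.1-fold for Runx1, and in middle-aged mice from 3.33-fold for Irf5 to 14.1-fold for Spi1. Across all 15866 genes tested, 28.3% were higher in young and 29.2% in middle-aged injured pools at an adjusted p under 0.05 (edgeR's quasi-likelihood test with Benjamini-Hochberg adjustment). The median log2 fold change of the 8 tested factors was 3.51 in young and 2.85 in middle-aged mice, beside 0.00054 and -0.032 for all genes. For all 7, every injured pool lay above every naïve pool of the same age, which held for 35.0% of all genes in young and 31.5% in middle-aged mice. With 3 pools against 3, a two-sided exact permutation test of a single gene cannot go below p = 0.1, and it gave 0.1 for each of the 7.

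**Figure D1:**
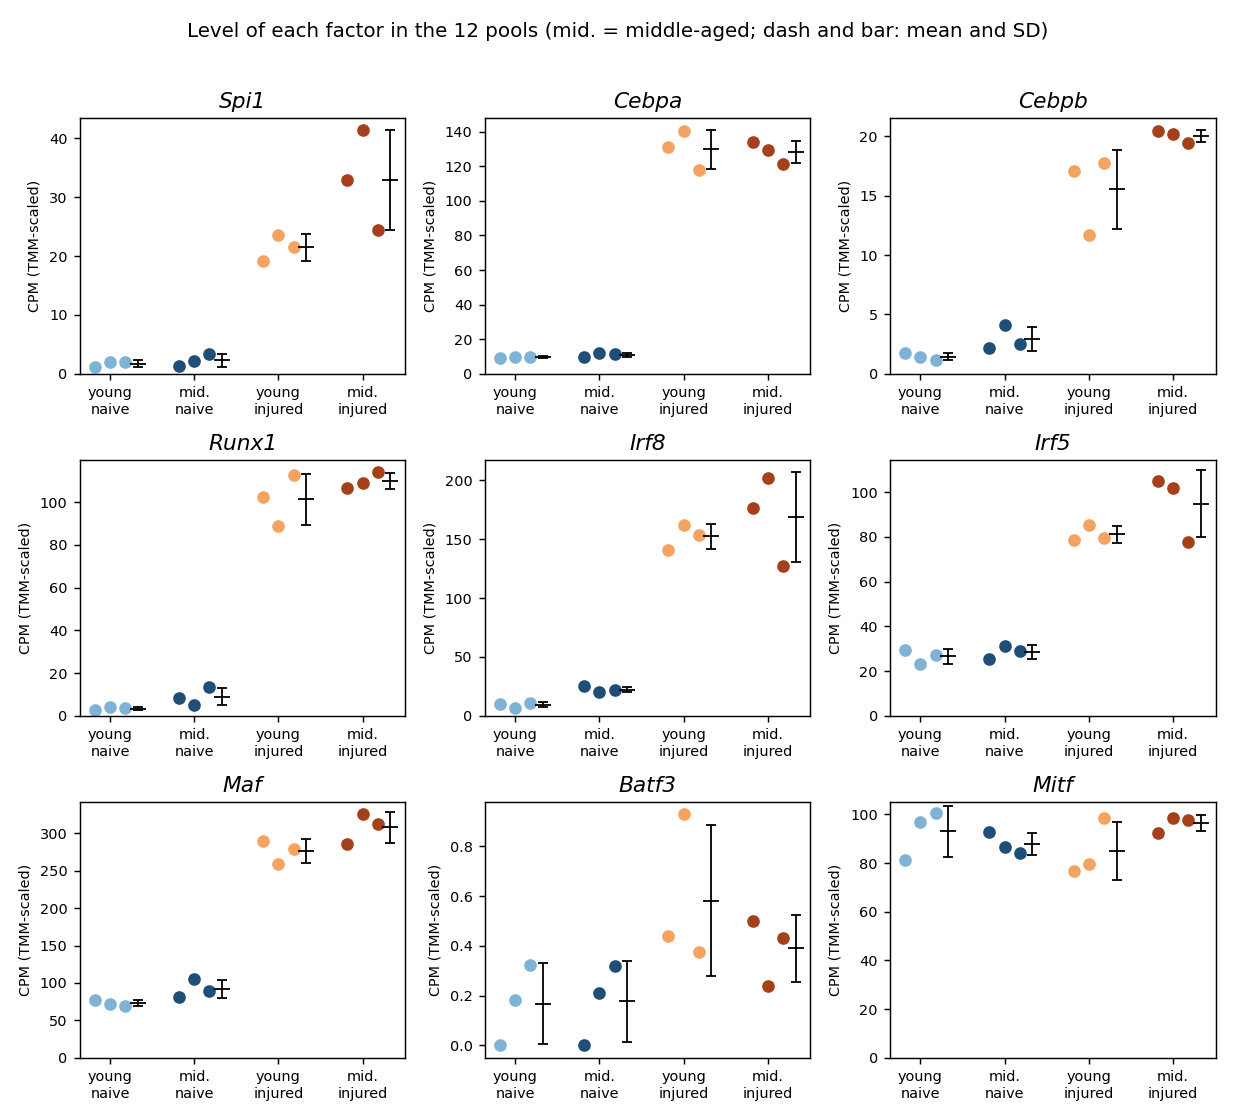
TMM-scaled CPM (vertical axes, each from 0 except for a small margin under 0 for Batf3) of the 9 factors in each of the 12 pools, by group; points are pools, and the dash and bar are the mean and SD of 3 pools. The injured pools stand above the naïve pools for every factor except Batf3, whose values rest on 0 to 12 counts, and Mitf, whose groups all lie between 76.7 and 101 CPM.

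Spi1 (ENSMUSG00000002111, chr2:91082390-91115756 of GRCm38) encodes the ETS factor PU.1, on which macrophage and microglial identity depends. In naïve white matter its counts were low, with 12, 23 and 19 counts in the young and 14, 20 and 43 in the middle-aged pools. The injured pools had 261, 305 and 287 counts in young and 397, 518 and 283 in middle-aged mice. The groups of the same age stood well apart. In CPM, the mean was 1.74 ± 0.561 (SD, n = 3) in young naïve against 21.5 ± 2.24 in young injured, and 2.29 ± 1.06 against 32.9 ± 8.47 in middle-aged mice. The log2 fold change was 3.62 (SE 0.33, adjusted p = 4.30e-07) in young and 3.82 (SE 0.32, adjusted p = 1.62e-07) in middle-aged mice by edgeR.

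The C/EBP factors drive granulocyte and macrophage genes, Cebpa from the progenitor stage and Cebpb in activated macrophages. Cebpa (ENSMUSG00000034957), a gene of 1 exon at chr7:35119293-35121928, had 9.38, 9.97 and 9.89 CPM in young naïve pools and 131, 140.3 and 118 CPM in young injured pools. In middle-aged mice its naïve pools had 9.70, 12 and 11.2 CPM and its injured pools 134, 129 and 121 CPM. The pools of a group were thus close together, and the change was estimated with the small standard error of 0.13 at each age: log2 fold changes of 3.73 (adjusted p = 6.72e-11, edgeR) and 3.55 (adjusted p = 9.22e-11). Cebpb (ENSMUSG00000056501, chr2:167688915-167690418) was lower throughout, with 1.73, 1.45 and 1.18 CPM in young naïve and 17.1, 11.7 and 17.8 CPM in young injured pools. The middle-aged pools had 2.21, 4.09 and 2.48 CPM when naïve and 20.4, 20.2 and 19.4 CPM when injured. Its rise was 3.40 on the log2 scale (SE 0.28, adjusted p = 1.57e-07, edgeR) in young and 2.78 (SE 0.26, adjusted p = 4.56e-07) in middle-aged mice. The Cebpb transcript shares 312 exon bases with Tmem189, which lies on the opposite strand and had 3306 to 5874 counts per pool. The strand setting of the counting is not given in the sources used here, so reads in those bases cannot be assigned between the genes.

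Runx1 (ENSMUSG00000022952, chr16:92601466-92826149) encodes the factor with which blood formation begins in the embryo, and it is expressed again in activated microglia. It had the lowest level per length of the 8 tested factors in naïve tissue and the largest fold rise of the 9 in young mice. The young naïve pools had 2.64, 3.99 and 3.44 CPM and the young injured pools 102, 88.8 and 112 CPM. In middle-aged mice the values were 8.35, 5.25 and 13.3 CPM before and 107, 109 and 114 CPM after injury. The injured levels of the 2 ages overlapped, whereas the naïve levels did not. The log2 fold change was 4.91 (SE 0.28, adjusted p = 3.94e-09, edgeR) in young and 3.60 (SE 0.25, adjusted p = 2.34e-08) in middle-aged mice. The antisense gene Gm26626, with 106 shared exon bases, had 0 to 13 counts.

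Among the interferon regulatory factors, Irf8 (ENSMUSG00000041515, chr8:120736358-120756694) encodes the partner of PU.1 in monocytes and microglia. Its levels were 10.1, 6.89 and 11 CPM in young naïve and 141, 162 and 154 CPM in young injured pools. The middle-aged naïve pools had 25, 20.5 and 21.5 CPM, and the injured pools of that age 177, 202 and 127 CPM. Irf8 therefore rose from different starting levels to injured levels that overlapped between ages, by 4.03 (SE 0.21, adjusted p = 1.54e-09, edgeR) and 2.92 (SE 0.19, adjusted p = 1.38e-08) on the log2 scale. Irf5 (ENSMUSG00000029771, chr6:29526625-29541871), which drives inflammatory cytokine genes, had 29.2, 23.0 and 27.3 CPM in young naïve and 78.4, 85.4 and 79.4 CPM in young injured pools. Its middle-aged pools had 25.2, 31.4 and 28.8 CPM when naïve and 105, 102 and 77.7 CPM when injured. This was the smallest rise among the 7 factors that passed, with log2 fold changes of 1.61 (SE 0.15, adjusted p = 4.90e-07, edgeR) and 1.74 (SE 0.15, adjusted p = 2.01e-07), although at middle age it was close to that of Maf. Irf5 shares 411 exon bases with Tnpo3 on the opposite strand, which had 636 to 1261 counts, so its values carry the same uncertainty as those of Cebpb.

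Batf3 (ENSMUSG00000026630, chr1:191097847-191108945) is needed by conventional type 1 dendritic cells, a rare population. It had 0, 2 and 3 counts in young naïve, 0, 2 and 4 in middle-aged naïve, 6, 12 and 5 in young injured and 6, 3 and 5 in middle-aged injured pools. Over the 3 pools of a group, 5 counts stood against 23 in young mice, a ratio of 3.62 with a counting interval of 1.35 to 12.2 (exact binomial, 95%), and 6 against 14 in middle-aged mice, a ratio of 2.09 (0.756 to 6.65). These intervals cover counting error only, since amplified reads are not independent molecules. In a fit of all genes with at least 1 count, its log2 fold changes were 1.77 (adjusted p = 0.200, edgeR) and 1.07 (adjusted p = 0.485), so that a difference was not detectable at this depth. Of 6 markers of these dendritic cells, 4 were higher and 1 lower in injured than in naïve pools at both ages. Of all genes, 28.3% were higher and 26.3% lower in young mice, and 29.2% and 29.3% in middle-aged mice. Among those that were higher, the adhesion gene Cadm1 was well expressed, at 89.2 ± 10.2 CPM (SD, n = 3) in young naïve and 141 ± 16.1 CPM in young injured pools. Which cells the Cadm1 reads came from was not tested. Others were low. Clec9a, the receptor for dead cells, had 0 counts in the young naïve and 6 to 19 in the young injured pools, and Itgae had 1 to 2 against 21 to 51. Flt3, the receptor of the dendritic cell growth factor, was the one that was lower, by log2 fold changes of -1.63 (adjusted p = 0.000325, edgeR) and -1.15 (adjusted p = 0.00357), and Tlr3 did not pass, at 0.12 (adjusted p = 0.620) and -0.22 (adjusted p = 0.317).

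Maf (ENSMUSG00000055435, chr8:115682942-115707794) encodes c-MAF, which promotes interleukin-10 and complement C1q in macrophages. It was already well expressed in naïve tissue, at 77.2, 72.2 and 69.4 CPM in young and 81.7, 105 and 89.5 CPM in middle-aged pools. In the injured pools it had 290.2, 259 and 279 CPM and 286, 325 and 313 CPM. The rise was 1.92 (SE 0.12, adjusted p = 9.31e-09, edgeR) and 1.74 (SE 0.12, adjusted p = 1.86e-08) on the log2 scale, smaller in fold than that of Spi1, Cebpa, Cebpb, Runx1 or Irf8, but in CPM the largest difference between group means among the 9, from 72.9 ± 3.95 to 276 ± 16.0 (SD, n = 3) in young mice. CPM is not divided by gene length, and per kilobase of exons Cebpa had a larger difference. In young mice Cebpa went from 3.70 to 49.3 CPM per kilobase, against 8.85 to 33.5 for Maf. The antisense gene Gm15655, which shares 440 exon bases with Maf, had 1 to 38 counts.

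Mitf (ENSMUSG00000035158, chr6:97807052-98021349) had the highest level of the 9 per length in naïve tissue and no difference past the threshold. The young pools had 81.2, 97.1 and 101 CPM when naïve and 76.7, 79.6 and 98.7 CPM when injured. In middle-aged mice the naïve pools had 92.8, 86.6 and 84.3 CPM and the injured pools 92.6, 98.7 and 97.6 CPM. The ranges overlapped at both ages. The log2 fold change was -0.13 (SE 0.13, adjusted p = 0.407, edgeR) in young mice, with a 95% interval of -0.42 to 0.16, and 0.13 (SE 0.13, adjusted p = 0.384) in middle-aged mice, with an interval of -0.16 to 0.42. With library totals alone as the scale, the young value was 0.067. The count is a sum over the transcripts of the gene, and those of different starts were not separated. Markers of mast cells, which depend on MITF, were at 0 in all naïve pools for 5 of 5 genes and summed to at most 0.415 CPM in an injured pool. The melanocyte list summed to 2.54 to 9.78 CPM in 11 of the 12 pools and to 137 CPM in middle-aged naïve replicate 2, where Dct had 1283 counts; Mitf in that pool, at 86.6 CPM, lay between the other pools of its group.

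**Figure D2:**
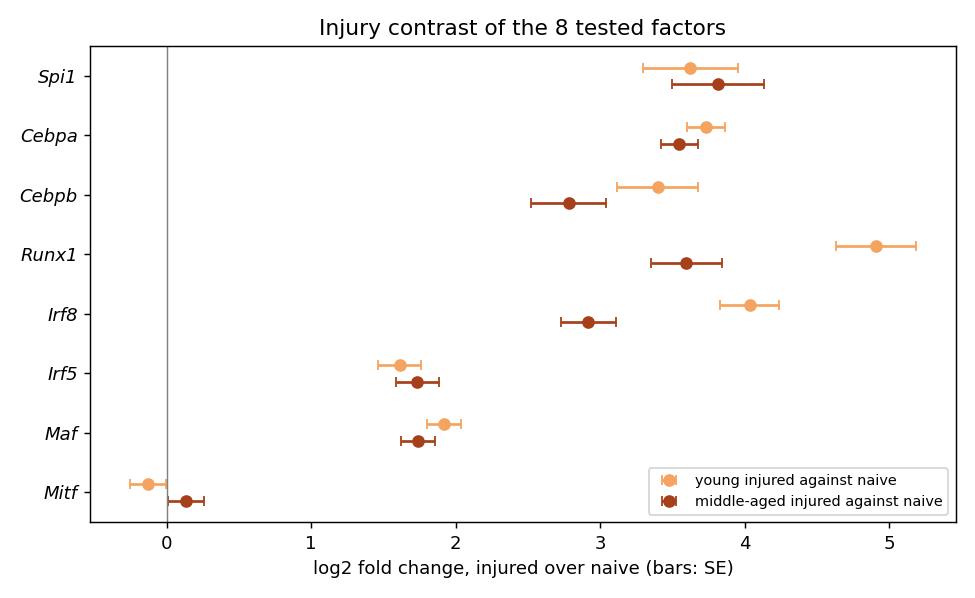
Log2 fold change of injured over naïve white matter (horizontal axis) for the 8 tested factors in young and middle-aged mice; points are edgeR estimates and bars their standard errors. Spi1, Cebpa, Cebpb, Runx1 and Irf8 lie between 2.78 and 4.91, Irf5 and Maf between 1.61 and 1.92, and Mitf at -0.13 and 0.13.

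Per length of merged exons, the order of the levels changed with injury. In young naïve mice it was Mitf (15 ± 1.68 CPM per kilobase, SD, n = 3), Irf5 (9.13 ± 1.1), Maf (8.85 ± 0.479), Cebpa (3.70 ± 0.121), Irf8 (1.32 ± 0.305), Cebpb (0.967 ± 0.182), Spi1 (0.646 ± 0.208), Runx1 (0.279 ± 0.0563) and Batf3 (0.105 ± 0.101). Irf5 and Maf, and Irf8 and Cebpb, were neighbours whose pools overlapped. In young injured mice Cebpa came first (49.3 ± 4.27 CPM per kilobase), followed by Maf (33.5 ± 1.94), Irf5 (27.9 ± 1.31), Irf8 (21.6 ± 1.53) and Mitf (13.7 ± 1.93). Cebpb (10.3 ± 2.21), Runx1 (8.42 ± 0.985) and Spi1 (7.97 ± 0.833) overlapped with their neighbours, and Batf3 was last (0.365 ± 0.190). Mitf thus went from the first place to the fifth while its own level had no difference past the threshold. The middle-aged injured order was the same down to Cebpb, with overlaps of Maf with Irf5 and of Irf5 with Irf8, and had Spi1 (12.2 ± 3.14) before Runx1 (9.13 ± 0.309), which overlapped. The length used is that of all annotated exons together, longer than most single transcripts, so that the order depends on which transcripts are made.

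A further question was whether a factor changed by more or less than the general myeloid markers, which rose themselves. With the libraries scaled so that the mean log2 level of the 8 pan-myeloid markers was equal in every pool, the median log2 fold change of all genes was -4.10 in young and -3.44 in middle-aged mice, and the values that follow are to be read beside it. On this scale 92.9% of all genes tested were lower and 1.51% higher in young injured pools, and 91.7% and 2.48% in middle-aged ones. With most genes called, the adjustment changed p-values little, for Runx1 in young mice from 0.0311 to 0.0331 by edgeR. The scaling factors were taken as known, so the standard errors leave out the error of the 8 markers. Of the 8 factors, 3 were lower in young and 4 in middle-aged mice, and 1 and 0 were higher. Spi1 (-0.47, adjusted p = 0.219, edgeR, in young, and 0.42, adjusted p = 0.252, at middle age), Cebpa (-0.38, adjusted p = 0.111, and 0.16, adjusted p = 0.497) and Cebpb (-0.71, adjusted p = 0.0668, and -0.57, adjusted p = 0.111) did not pass. As a percentage of the geometric mean of the markers in the same pool, Spi1 was 23.0 ± 7.31 (SD, n = 3) in young naïve and 16.4 ± 1.13 in young injured pools, and 15.8 ± 7.25 and 21.3 ± 3.66 in middle-aged ones.

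Irf5, Maf and Mitf were the factors lower per marker at both ages. Irf5 fell by 2.50 (adjusted p = 1.14e-09, edgeR) and 1.67 (adjusted p = 3.01e-07) on the log2 scale, from 354% ± 65.1 of the marker mean in young naïve to 61.9% ± 2.56 in young injured pools. Maf fell by 2.20 (adjusted p = 1.08e-08) and 1.64 (adjusted p = 6.13e-07), from 981% ± 194 to 211% ± 20.8 in young mice. For Mitf the values were -4.24 (adjusted p = 7.44e-12) and -3.28 (adjusted p = 1.81e-10), close to the medians of all genes. Runx1 was the factor higher per marker in young mice, by 0.81 (SE 0.34, adjusted p = 0.0331, edgeR), from 44.9% ± 11.7 to 77.4% ± 9.73 of the marker mean, and stood at 0.18 (adjusted p = 0.595) in middle-aged mice. That call was lost without young naïve replicate 1 (adjusted p = 0.0973) or 3 (0.105) and without young injured replicate 1 (0.0743) or 3 (0.0787), and the adjusted p over its alternatives ranged from 0.00452 to 0.105. Irf8 did not pass in young mice (-0.064, adjusted p = 0.804) and lower in middle-aged mice (-0.54, SE 0.24, adjusted p = 0.0412). Scaled to a second list, the leukocyte genes Coro1a, Lcp1, Arhgdib, Rac2, Vav1 and Cyth4, Irf8 in middle-aged mice was no longer past the threshold (-0.47, adjusted p = 0.0985), and in 7 of 12 fits with a pool left out it was not either, with adjusted p-values over all its alternatives from 0.00465 to 0.273 (the latter without middle-aged naïve replicate 1).

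**Figure D3:**
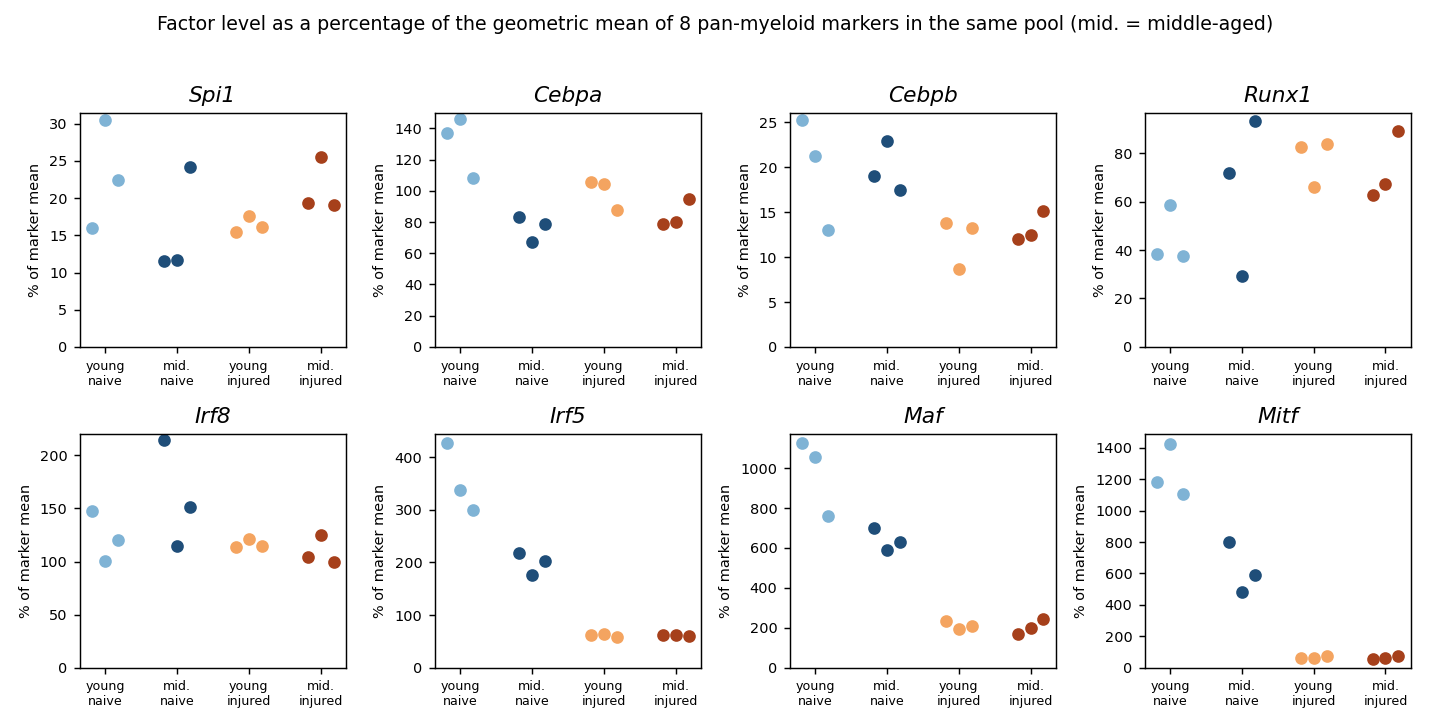
Level of each tested factor as a percentage of the geometric mean CPM of the 8 pan-myeloid markers in the same pool (vertical axes from 0), for the 12 pools by group; points are pools. Irf5, Maf and Mitf are lower in every injured pool than in every naïve pool, while the injured pools of Spi1 and Irf8 lie within or next to the range of the naïve pools.

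The markers of single myeloid populations were read beside these values, and their part in them was not tested. On the TMM scale used for them, 28.3% of all genes were higher and 26.3% lower in young injured pools, and 29.2% and 29.3% in middle-aged ones. Of the 6 microglial markers, 4 were higher in young injured pools (among them Gpr34, by 2.40 on the log2 scale), and P2ry12 (0.40, adjusted p = 0.0681, edgeR) and Siglech (-0.026, adjusted p = 0.939) did not pass; in middle-aged mice 2 were higher and Siglech was lower (-1.51, adjusted p = 0.000101). The 5 tested monocyte markers were all higher at both ages, but most of the summed level of the list came from Fn1, fibronectin, a matrix gene that fibroblasts also make, with 30.9 to 45.9 CPM in young naïve and 912 to 1206 CPM in young injured pools. Ccr2 and Chil3 had 0 counts in all young naïve pools and rose at least 673-fold and 228-fold against 3 counts over the group. Of the neutrophil list, 3 of 8 genes passed the filter, and the list summed to at most 27.9 CPM. Most of that sum came from Mmp8, with means of 11.6 CPM in young and 19.6 CPM in middle-aged injured pools, where S100a8 had 1.30 and 1.34 CPM. Lists of T and NK cells and of B cells reached at most 4.57 and 3.23 CPM, and 1 gene of each list passed the filter.

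The relatives of the 9 factors, 27 genes of the same families, moved mostly the same way. Of the 22 tested, 19 were higher, 1 was lower and 2 did not pass in young mice, and 17, 0 and 5 in middle-aged mice, beside 28.3% and 29.2% of all genes that were higher. Their median log2 fold change was 1.99 and 1.36. The small MAF proteins, which lack an activation domain, rose at both ages: Mafg by 0.53 and 0.65, Mafk by 0.68 and 1.01, and Maff by 2.21 and 2.30. Cbfb, the common partner of the RUNX proteins, rose by 0.88 (SE 0.14, adjusted p = 0.000121, edgeR) and 1.26 (SE 0.14, adjusted p = 3.58e-06).

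Among the remaining IRF genes, the interferon-inducible Irf7 rose by 3.42 (SE 0.60) and 2.56 (SE 0.55) on the log2 scale, Irf1 by 2.22 and 1.79, Irf9 by 1.76 and 1.46 and Irf2 by 1.30 and 0.97, all past the threshold at both ages. Irf3 rose by 0.96 (adjusted p = 0.00727, edgeR) in young mice and had 0.39 (adjusted p = 0.215) in middle-aged mice, and the difference between these effects did not pass its own test (adjusted p = 0.678). Of the C/EBP genes, Cebpg, which dimerizes with the other members, rose by 0.75 and 0.78. Batf, the relative of Batf3 known from T cells, had 0 to 4 counts in the naïve pools and 49 to 93 in the injured pools, a rise by 4.42 (SE 0.54, adjusted p = 8.68e-06, edgeR) and 5.61 (SE 0.57, adjusted p = 1.17e-06). Batf2 stayed at 2 to 13 counts in all pools and did not pass (-0.66, adjusted p = 0.341, and 0.74, adjusted p = 0.322).

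The closest relatives of Mitf divided. Tfe3, a factor of lysosomal genes, had 26.7, 27.9 and 24.7 CPM in young naïve and 53.9, 64.5 and 58.7 CPM in young injured pools, a rise by 1.16 (SE 0.14, adjusted p = 7.03e-06, edgeR), and rose by 1.04 (SE 0.14, adjusted p = 1.61e-05) in middle-aged mice. Tfeb, its paralog with a similar role, fell by 0.92 (SE 0.30, adjusted p = 0.0173) in young mice and had -0.45 (adjusted p = 0.219) in middle-aged mice. Tfec, the member restricted to the macrophage lineage, had 0 counts in all young naïve pools against 91, 91 and 87 in the young injured ones, at least 70.5-fold higher when set against 3 counts over the group. In middle-aged mice it had 2 counts over the naïve and 241 over the injured pools, a ratio of 108 with a counting interval of 29.6 to 898. Thus Tfe3 and Tfec rose at both ages while Mitf itself had no difference past the threshold. In the age comparisons and in the difference of injury effects, 0 of the 22 tested relatives passed by edgeR.

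**Figure D4:**
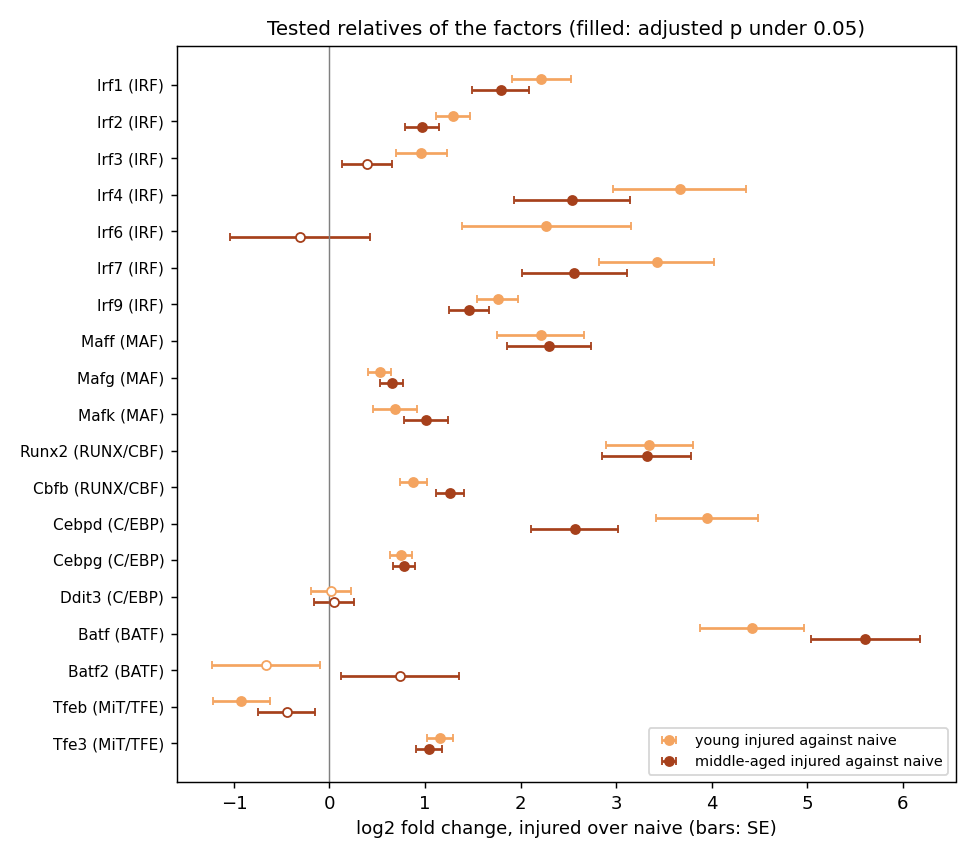
Log2 fold change of injured over naïve white matter (horizontal axis) for 19 of the 22 tested relatives, without Runx3 and Tfec, which had at most 3 counts over a naïve group, and without 1 that is not reported here, in young and middle-aged mice; points are edgeR estimates, bars standard errors, filled points an adjusted p under 0.05. Of those drawn, Batf lies farthest to the right at both ages, Mafg and Cebpg lie between 0.53 and 0.78, and no point of Tfeb, Batf2 or Ddit3 is filled on the right.

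Other factors of myeloid cells gave a mixed picture, to be read beside the 28.3% and 29.2% of all genes that rose and the 26.3% and 29.3% that fell in young and middle-aged mice. Of 6 genes of the microglial identity program, 5 rose and 1 fell in young mice, and 4 and 1 in middle-aged mice: Mef2c, a partner of PU.1 at microglial enhancers, rose by 2.28 and 1.91 and Sall3 by 1.49 and 0.84, while Sall1, which holds microglia in their resting state, fell by 0.69 (adjusted p = 0.0127, edgeR) and 0.83 (adjusted p = 0.00386). Bhlhe41 rose by 0.49 in young mice and had -0.17 (adjusted p = 0.244) in middle-aged mice. Of 13 other tested factors of blood-forming and myeloid cells, 7 rose in young and 6 in middle-aged mice and 0 fell. Ikzf1, which encodes Ikaros, rose by 3.18 and 2.48. Lyl1, a factor of blood progenitors, rose by 3.07 (adjusted p = 0.00651, edgeR) in young mice and had 1.63 (adjusted p = 0.0817) in middle-aged mice. Zbtb46, a factor of conventional dendritic cells, did not pass (-0.18, adjusted p = 0.586, and 0.28, adjusted p = 0.385), nor did Id2 (-0.18, adjusted p = 0.196, and 0.20, adjusted p = 0.145).

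Genes known to be controlled by these factors were counted in the same fit. Of 9 genes known to need or bind PU.1, 9 rose at both ages, with medians of 4.12 and 3.22 on the log2 scale beside medians near 0 for all genes. This count and those that follow are to be read beside the 28.3% of all genes that rose in young and 29.2% in middle-aged mice. Cybb, the catalytic subunit of the phagocyte oxidase, rose by 7.37 and 5.82 and Tlr4 by 4.62 and 4.70, and Csf2ra, a subunit of the GM-CSF receptor, by 3.12 and 2.88. Of 6 tested genes linked to c-MAF in macrophages, 5 rose at both ages, among them F13a1 (7.0 and 5.30) and C1qc (4.17 and 3.34), and Cd163, a scavenger receptor for haemoglobin, did not pass (0.24, adjusted p = 0.755, and 1.26, adjusted p = 0.0774, edgeR). Il10 was not tested for low counts. Of 6 tested genes that MITF and its relatives control in osteoclasts, 5 rose at both ages although Mitf did not: Acp5, tartrate-resistant acid phosphatase, had 0 counts in young naïve pools and was at least 268-fold higher in young injured pools, Gpnmb rose by 9.97 and 7.59, and Ostm1 rose by 0.73 and 0.89. Ctsk, cathepsin K, fell by 0.60 (adjusted p = 0.00836) in young mice and had 0.058 (adjusted p = 0.788) in middle-aged mice. Between naïve pools, 3 of the 9 PU.1 genes and 2 of the 6 genes linked to c-MAF were higher in middle-aged mice. The same held for 1 of the 6 MITF genes, and 0 of these genes were lower. Of all genes, 2.02% were higher and 1.78% lower in that comparison, and of the 8 pan-myeloid markers 6 were higher. Between injured pools 0 of the listed genes passed, where 0.240% of all genes were higher and 0.908% lower. These lists were drawn up from general knowledge of the factors, and control of the genes by them in this tissue was not measured.

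The second question was whether the factors differ with age before injury. Irf8 and Runx1 were higher in middle-aged than in young naïve pools, 2 of the 8 tested, against 2.02% of all genes that were higher in this comparison. Irf8 was 2.40-fold higher, from 9.32 ± 2.15 to 22.3 ± 2.35 CPM (SD, n = 3), a log2 difference of 1.26 (SE 0.20, adjusted p = 0.00359, edgeR). Runx1 was 2.70-fold higher, from 3.36 ± 0.677 to 8.96 ± 4.05 CPM, a log2 difference of 1.43 (SE 0.28, adjusted p = 0.0117), and its middle-aged pools were widely spread. Maf (0.34, adjusted p = 0.131) and Cebpb (0.98, adjusted p = 0.0920) also had every middle-aged pool above every young pool, which held for 7.77% of all genes, and did not pass. Spi1 (0.43, adjusted p = 0.572), Irf5 (0.10, adjusted p = 0.768), Cebpa (0.17, adjusted p = 0.535) and Mitf (-0.082, adjusted p = 0.784) overlapped between the ages. With only the 6 naïve pools in the fit, 0 factors passed, Irf8 at an adjusted p of 0.0721 and Runx1 at 0.194 (edgeR). That fit also called fewer of all genes, 26 higher and 45 lower of 14401. The fit reported called 321 higher and 282 lower of 15866. In the fit of all groups without young naïve replicate 1, the adjusted p of Runx1 was 0.0595. Over the alternatives run, the adjusted p ranged from 6.38e-07 to 0.180 for Irf8 and from 7.98e-06 to 0.194 for Runx1.

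The general markers moved with this result. Of the 8 pan-myeloid markers, 6 were higher in middle-aged naïve pools, with log2 differences from 0.70 for Laptm5 to 1.31 for Fcer1g, and Aif1 (0.76, adjusted p = 0.377, edgeR) and Csf1r (0.25, adjusted p = 0.486) did not pass; their list summed to 101 to 131 CPM in young and 155 to 206 CPM in middle-aged naïve pools. With the libraries scaled to these markers, an alternative chosen after seeing the data, 64.5% of all genes were lower and 0.700% higher in middle-aged naïve pools. On that scale Irf8 (0.39, adjusted p = 0.180) and Runx1 (0.54, adjusted p = 0.184) did not pass, Irf5 (-0.83), Maf (-0.61), Cebpa (-0.76) and Mitf (-0.98) were lower, and the median of all genes was -0.90. On the TMM scale, 3 of the 6 oligodendrocyte markers were lower and 0 higher in the middle-aged naïve pools, beside 1.78% and 2.02% of all genes. What part the makeup of the dissected tissue had in the age comparison was not tested.

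**Figure D5:**
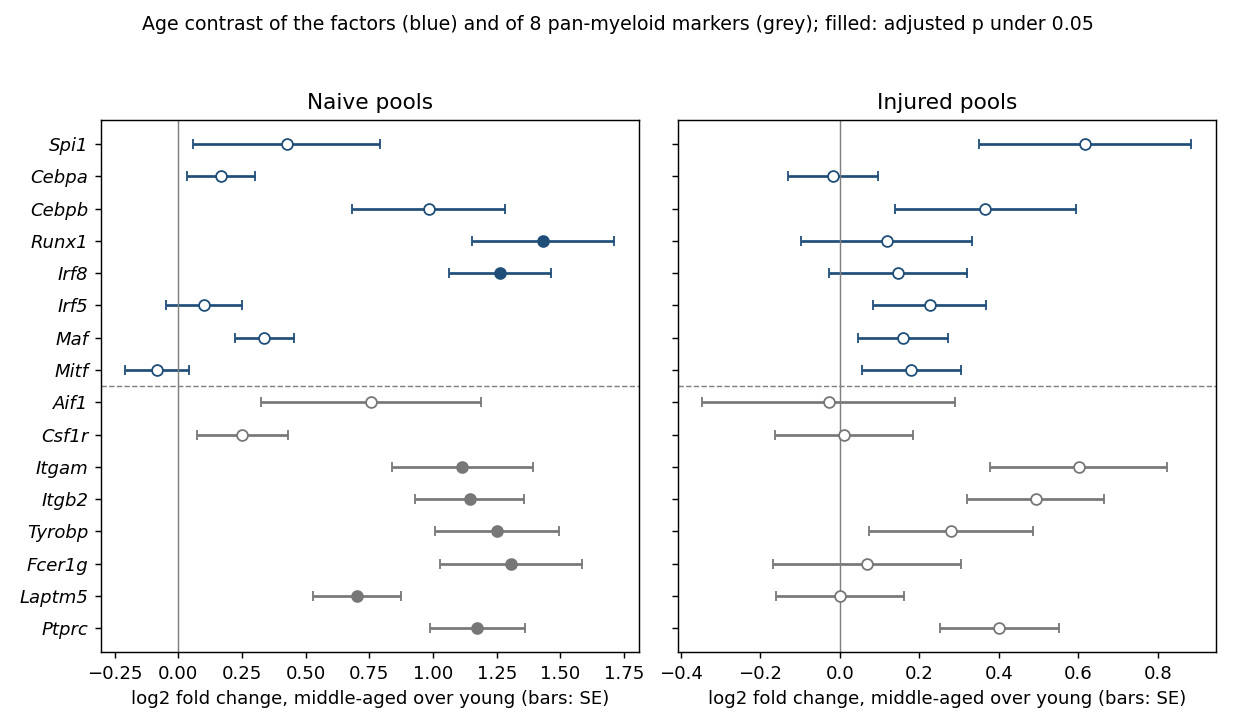
Log2 fold change of middle-aged over young mice (horizontal axes, of different range) in naïve and injured pools, for the 8 tested factors (blue) and the 8 pan-myeloid markers (grey); points are edgeR estimates, bars standard errors, filled points an adjusted p under 0.05. In naïve pools Irf8, Runx1 and 6 of the markers are filled; in injured pools none of the 16 genes is.

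In injured white matter, 0 of the 8 tested factors differed between the ages by edgeR, where 0.240% of all genes were higher and 0.908% lower at middle age; 1 of them, Spi1, had an unadjusted p under 0.05, and DESeq2 also called 0. Spi1 was higher by 0.62 (SE 0.27, adjusted p = 0.449) and Cebpb by 0.37 (SE 0.23, adjusted p = 0.736), with every middle-aged pool above every young pool, which held for 11.1% of all genes. The values of the other factors lay between -0.018 for Cebpa and 0.23 for Irf5, with overlapping pools and 95% intervals that reached no further than -0.38 and 0.61, both for Runx1.

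The third question was whether injury had a different effect at the 2 ages. For the difference of the log2 fold changes, middle-aged minus young, 0 of the 8 factors passed with edgeR, where 0.139% of all genes did, and 2 had an unadjusted p under 0.05. These were Irf8, with -1.12 (SE 0.26, unadjusted p = 0.000809, adjusted p = 0.127), and Runx1, with -1.31 (SE 0.35, unadjusted p = 0.00225, adjusted p = 0.164). Both were called by DESeq2 (adjusted p = 0.0151 and 0.0277) and in the edgeR fit without a filter on low counts (0.00447 and 0.00612), so that the call depended on the tool and the filter. These fits also called more of all genes. DESeq2 had 103 higher and 151 lower of 15866, and the fit without a filter 81 and 248 of 27172, against 9 and 13 of 15866 in the fit reported. Over the alternatives run, the adjusted p ranged from 0.00447 to 0.318 for Irf8 and from 0.00612 to 0.365 for Runx1. The remaining 6 had values from -0.62 for Cebpb to 0.26 for Mitf, with adjusted p-values of 0.650 or more. The 5 comparisons share pools with each other and are not independent.

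Over the 12 pools, the log2 CPM of the 7 factors that rose followed each other with Pearson's r of 0.95 to 0.99, and that of Mitf had an r with them between -0.04 and 0.07. These values mostly restate the difference between injured and naïve pools and are given as a description. Genes with the most similar pattern were named for each factor, by Pearson's r over the 12 pools. They were Tcn2, Tmed10 and Man2b1 for Spi1 (r = 0.996, 0.995 and 0.993), Hcls1, Csf3r and Dock8 for Irf8 (0.997, 0.997 and 0.996) and Plcg2, Cd300a and Npl for Cebpa (0.998, 0.997 and 0.997). For Runx1 they were Tent5c, Gpnmb and Casp1 (0.996, 0.995 and 0.995), for Irf5 Pld4, Psap and Glipr1 (0.995 each), for Maf Tlr13, Nek6 and Blnk (0.996, 0.996 and 0.995) and for Cebpb Gm49339, Maf and Tlr13 (0.993, 0.993 and 0.992). For Mitf, Fam214b, Sh3kbp1 and Gm15265 came first, with r of only 0.714, 0.713 and 0.706.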

How the data were processed

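RNA of 12 laser-captured pools of mouse spinal cord white matter was analysed, 3 pools of 5 mice per group, grouped by the sample labels, with ages and time from the study's methods. The authors checked reads with FastQC 0.11.4, mapped them to GRCm38 with TopHat2 2.0.10 and Bowtie 1.1.2 and deposited raw counts per gene from featureCounts, unnormalized. The annotation release and strand setting are not given in the sources used here. Symbols and positions came from GENCODE on GRCm38 for 45229 of the 46078 identifiers.

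The counts were tested in R 4.3.3 with edgeR 4.0.16 (TMM, filterByExpr, glmQLFit and glmQLFTest) on all 12 pools, with 1 coefficient per group and Benjamini-Hochberg adjustment over 15866 genes at a threshold of 0.05. Standard errors were derived from the log2 fold change and its F statistic, and 95% intervals use 8 residual degrees of freedom. Log2 CPM used a prior count of 2. In a separate fit, libraries were scaled to 8 pan-myeloid markers. Alternatives were other scalings, other filters, DESeq2 1.42.0, the replicate number as a block, only the pools compared, a second leukocyte list and each pool left out. The steps were tested on simulated data. Totals of 9834447 to 12807437 counts per pool set a limit of 3 counts for detection.

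The factors and lists were chosen with earlier results of these data known. All 9 factors were named. Relatives were named if they passed in an injury comparison with a mean log2 CPM of at least 1, or shared the family of a factor that did not pass; from each other list at most 4 genes were named, the 2 highest and 2 lowest tested log2 fold changes in young injury, and for each factor the 3 genes of highest r with a mean log2 CPM of at least 1. Genes outside this rule (Il10, Tmem119, Cadm1, Fn1 and single pan-myeloid and fibroblast markers) were chosen after their values were seen. Some genes that the rule names are not reported here.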

Additional observations from a re-analysis of the deposited data

How the results depend on the processing

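The 7 factors that rose with injury kept direction and call at both ages with library totals, RLE or upper-quartile factors as the scale and under each other filter, tool, block and left-out pool, but not on the scale of the 8 pan-myeloid markers, where Irf5 and Maf were lower at both ages, Spi1, Cebpa and Cebpb did not pass, Irf8 was lower at middle age and Runx1 kept its call in young mice alone. The young value of Mitf was 0.067 with library totals alone. In the age comparison of naïve pools, 2 factors passed. With only the 6 pools compared 0 did, where 26 of all 14401 genes tested were higher and 45 lower. With a pool left out 1 to 2 passed. With the scale set by the 8 pan-myeloid markers, added after seeing the data, 4 passed, all lower. On that scale the values that turned were -0.51 for Spi1, -0.83 for Irf5, -0.61 for Maf and -0.76 for Cebpa; among injured pools they were -0.088 for Irf8, -0.0032 for Irf5, -0.046 for Maf, -0.085 for Runx1 and -0.021 for Mitf, and for the difference of injury effects 0.56 for Maf, 0.53 for Cebpa and 0.14 for Cebpb. For that difference, 2 factors passed with DESeq2, 2 without a filter, and 0 to 1 with a pool left out, the 1 being Runx1 without middle-aged naïve replicate 2 (adjusted p = 0.0215), against 0 in the fit reported. With a pool left out, uncalled values crossed 0: Spi1 by age in naïve pools ranged from -0.019 (without middle-aged naïve replicate 3) to 0.70, Cebpa by age in injured pools from -0.069 to 0.047 (above 0 without young injured replicate 2 or middle-aged injured replicate 3), Irf8 there from -0.0010 (without middle-aged injured replicate 2) to 0.33, and the difference of injury effects for Spi1 from -0.079 to 0.64 (below 0 without middle-aged naïve replicate 1 or middle-aged injured replicate 2). Per marker, Irf8 in young injury ranged from -0.19 to 0.086 (without young naïve replicate 1) and was 0.26 with the second leukocyte list, Runx1 in middle-aged injury ranged from -0.18 (without middle-aged naïve replicate 2) to 0.56, and 3 to 5 factors passed in young and 3 to 4 in middle-aged injury against 4 and 4; Cebpa and Cebpb joined in young mice without young naïve replicate 3 (adjusted p = 0.0404 and 0.0189), Cebpb without middle-aged naïve replicate 2 (0.0493), and Spi1 at middle age without middle-aged naïve replicate 3 (0.88, adjusted p = 0.0336). The fits of 6 held fewer pools, and the cause was not tested for any of these.

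The replicate numbers do not pair the pools: each pool holds other mice, and deviations from group means of same-numbered pools correlated between -0.113 and 0.153 across genes. With that number as a block in the fit (the replicate block), 7, 7, 2, 0 and 0 factors passed in the 2 injury, 2 age and interaction comparisons, as without it; per marker 4 passed in young and 3 in middle-aged injury, where Irf8 had an adjusted p of 0.0693.

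Limits. Pools of 5 mice and 3 pools per group give few degrees of freedom, dissected areas differ in cell content, and amplified reads are not independent molecules. For Batf3, with 0 to 4 counts in the naïve and 3 to 12 in the injured pools, a difference was not detectable at this depth. Counts sum over transcripts, so alternative starts of Mitf, Runx1 and Irf8 were not separated, and overlapping genes on the opposite strand limit Cebpb and Irf5.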

Other observations

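Tmem119, a marker of resident microglia, was uneven among the middle-aged naïve pools, with 454 to 1836 counts per pool, against 337 to 435 in young naïve pools. The injured pools had 1561 to 1888 counts in young and 926 to 1559 in middle-aged mice. At middle age Tmem119 had a mean of 100 CPM in naïve and 98.6 CPM in injured pools. Its log2 difference between middle-aged and young naïve pools was 1.43 (SE 0.39, adjusted p = 0.0596, edgeR), close in size to those of Irf8 and Runx1. Sall1, by contrast with the factors that rose, had 64.8 ± 15.9 CPM (SD, n = 3) in young naïve and 40.2 ± 5.87 CPM in young injured pools, and 62.0 ± 18.1 and 35.0 ± 1.34 CPM in middle-aged ones. The fibroblast genes Col1a1, Col1a2, Dcn and Lum rose in 4 of 4 cases at both ages, beside 28.3% of all genes in young and 29.2% in middle-aged mice. Their list summed to 634 to 1025 CPM in young and 288 to 556 CPM in middle-aged injured pools.

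The melanocyte gene Dct had 1283 counts in middle-aged naïve replicate 2, 134.6 TMM-scaled CPM, against 6 to 61 counts in the other 11 pools. Tyr and Pmel were tested beside it and did not pass in either injury comparison. Dct itself was called lower in middle-aged injured than naïve pools, with a log2 fold change of -4.87 by edgeR. Its means there were 45.4 CPM in naïve and 1.52 CPM in injured pools, but the naïve median was 1.12 CPM, so that the call rests on that 1 pool. The source of the Dct reads was not tested.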
